A study of Papio hamadryas with 12 samples.

Results

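The genes described here are those that were well measured in high LDL-C baboons, so that the response to a high-cholesterol, high-fat (HCHF) diet could be followed within each animal. They are the genes with at least 10 counts in each of the 6 high LDL-C libraries, which held for 7565 of the 27533 genes of the table (27.5%). The rule sets a level and uses no difference between diets, but it leaves out every gene that was near 0 in any of these libraries. The groups were 3 high LDL-C baboons after 7 weeks on the HCHF diet, in which fat gave 40% of the calories and cholesterol was at 1.7 mg/kcal, and the same animals earlier on chow, with 4% and 0.03 mg/kcal. The high LDL-C baboons are called baboon 1, 2 and 3 in no order, and each has 1 HCHF and 1 chow library, tied to each other by the animal number in the labels. Both libraries of each of the 3 low LDL-C baboons, on the same diets, serve here only for the comparison of the diet responses. The study chose the animals from a pedigreed colony as half-sib pairs discordant for LDL-C, and the labels do not give which animals are half-sibs, nor their sex or age. Every animal had the chow sample first, and the labels list no animals kept on chow for the same weeks, so that diet and time cannot be told apart.

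LDL carries cholesterol through the blood to cells, and its level after a diet rich in fat and cholesterol differs widely between animals. RNA was taken from the buffy coat, the layer of centrifuged blood that holds the white blood cells and platelets, with red blood cells next to it. White blood cells take up lipoproteins and respond to lipid in the blood, and a buffy coat mixes many cell types. In such bulk samples, fewer cells of a type and less RNA per cell cannot be told apart. Genes carry Ensembl IDs and positions on the baboon assembly PapAnu2 in the files, which pair no symbols with them. The labelled tissue could therefore not be checked against its markers, and lists of lipid, immune and blood cell genes could not be matched. Genes are described by position, by genomic span (the distance between the ends of the gene, introns included) and as sets.

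Levels are CPM values, in which counts are scaled to a common library total, taken here without the 2 most abundant genes. One of these is on chromosome 14 (60046720 to 60049466) and the other at the start of chromosome 20 (39182 to 41379). The 6 totals ran from 3434663 to 5838152 counts, and from 1722928 to 2874697 without these 2 genes. The 2 genes took 43.5%, 47.9% and 16.3% of the counts in the HCHF libraries of baboons 1, 2 and 3, against 51.7%, 55.6% and 52.2% in their chow libraries, so that the HCHF library of baboon 3 stood apart. The widest 95% Wilson interval of these shares and of the mitochondrial shares of the same 6 libraries below was 0.132 percentage points, which covers counting error only. The HCHF library of baboon 3 also had the most genes with at least 10 counts, 11195, against 9415 in the chow library of the same animal and 8373 to 10247 in the other 4. The 7565 genes held between 95 and 98.3% of the counts left in each library. Of them 7543 lay on chromosomes 1 to 20 and X and 22 on the mitochondrial genome, and 6632 had a single transcript in the table. The 1345 genes on unplaced scaffolds had 0 counts in all 12 libraries. The 469 genes just inside the threshold, with a lowest count of 10 to under 12, had median differences of -0.09, -0.44 and 0.16 on the log2 scale in baboons 1, 2 and 3, and the 517 genes just outside it, from 8 to under 10, had -0.13, -0.70 and 0.11.

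To identify genes that responded to the diet in high LDL-C animals, the HCHF and chow libraries were compared with edgeR's quasi-likelihood test with a term for each baboon, on all 12702 genes with a mean of at least 1 CPM. A call needed a p under 0.05 before adjustment and under 0.20 after the Benjamini-Hochberg adjustment, which is the FDR of the study. None of the 7565 well-measured genes was called, and the lowest adjusted p among them was 0.564 in edgeR. Over all 12702 genes the share called was 0.0236% higher and 0% lower on the HCHF diet. The 3 called genes were not among the well-measured ones. In the HCHF sample of baboon 3 they had 3033, 244 and 362 counts, with no more than 3 in each of the other 5 libraries. At an unadjusted p under 0.05 in edgeR, 39 well-measured genes had a higher and 212 a lower level with the HCHF diet (0.516% and 2.80% of 7565), against 2.68% higher and 2.29% lower over all 12702 genes. The higher group over all genes was largely outside the well-measured set: 302 of its 341 genes were, and 286 of these 302 had their highest level in the HCHF library of baboon 3. Genes near 0 in any of the libraries cannot be well measured by the rule, so that this contrast follows in part from the rule.

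The count of calls depended on the animals and the tool. Without baboon 2, edgeR called 97 well-measured genes, of which 14 were higher and 83 lower. Over all 12702 genes that fit called 274 higher and 87 lower (2.16% and 0.685%), so that higher calls lay mostly outside the well-measured genes and lower calls within them. The rule keeps out genes near 0 in any library, so that this split is in part fixed by the rule. Without baboon 1, edgeR called 1 higher and 17 lower, against 137 and 18 over all genes (1.08% and 0.142%). Without baboon 3 it called 2 higher and 1 lower, which were all its calls (0.0157% and 0.00787%). Each fit that leaves out a baboon rests on 2 pairs and on the scaling used here. DESeq2 called 1 higher and 1 lower (56 and 103 at an unadjusted p under 0.05), against 0.0157% and 0.00787% of all genes, and limma after quantile normalization called 0 (92 and 230). Scaling by the total with all genes called 2 higher, against 35 over all genes (0.276%). With no filter on low counts 3 higher and 13 lower were called, against 84 and 13 of 17487 genes (0.48% and 0.0743%). The balance of the unadjusted counts moved with the scaling, with 72 genes higher and 151 lower under TMM and 263 higher and 17 lower under the total with all genes. For the unadjusted counts of these alternatives no share over all genes was taken. Whether such shifts are particular to the well-measured genes was therefore not tested. With 3 pairs an exact sign-flip permutation test of a single gene cannot go below a two-sided p of 0.25, so none was used.

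The differences within the 3 pairs did not run together across genes. The median of HCHF minus chow over the 7565 genes was -0.06 in baboon 1, -0.19 in baboon 2 and 0.02 in baboon 3 on the log2 CPM scale, and the standard deviations across genes were 0.50, 0.84 and 0.60. In baboon 2, 1461 genes were lower by a factor of at least 2 and 294 were higher by as much. In baboon 1 these numbers were 311 and 106, and in baboon 3 they were 316 and 253. A 2-fold difference in at least 1 pair was found for 2446 genes, and in all 3 pairs for 0 genes higher and 6 genes lower on the HCHF diet. At 1.5-fold, 15 were higher and 74 lower in all 3 pairs. The 0 higher at 2-fold was a near miss, as 1 gene had log2 differences of 0.9902, 1.26 and 1.012 in baboons 1, 2 and 3. All these 2-fold and 1.5-fold counts hold for the scaling used here and shift with it. No share over all genes was taken beside them.

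**Figure D1:**
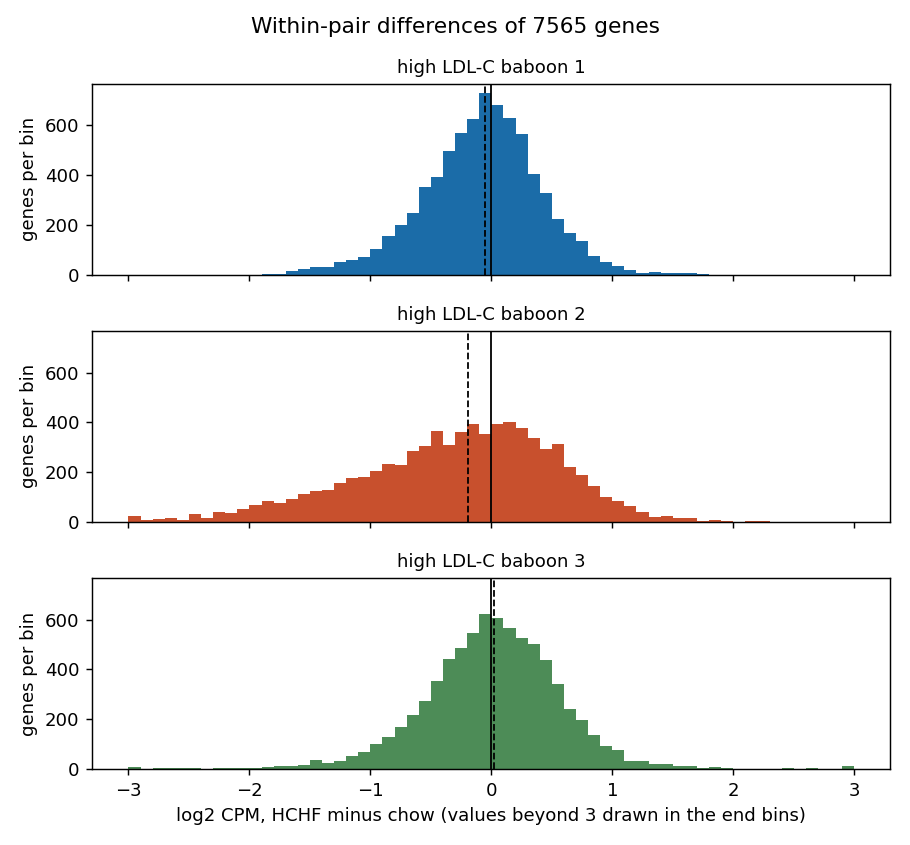
Number of genes in bins of 0.1 by the log2 CPM difference HCHF minus chow, for the 7565 well-measured genes in each high LDL-C baboon. The solid line marks 0 and the dashed line the median. Baboon 2 has the broadest distribution (SD 0.84), with a long tail of genes lower on the HCHF diet, and baboon 1 the narrowest (SD 0.50).

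In the same direction in all 3 pairs were 661 genes higher (8.74%) and 1192 lower (15.8%) on the HCHF diet, where over all 12702 genes the shares were 8.46% and 14.7%. The most frequent of the 8 possible patterns was lower in baboons 1 and 2 and higher in baboon 3, with 1387 genes. The next was higher in baboons 1 and 3 and lower in baboon 2, with 1233. The lead of lower over higher genes depended on the scaling. With TMM 948 genes were higher and 881 lower in all 3 pairs, which turns the lead round, and without mitochondrial genes in the total 1009 were higher and 855 lower. With all genes in the total 2462 were higher and 128 lower. TMM shifted the differences of baboons 1, 2 and 3 by 0.10, 0.28 and -0.07, and the total with all genes by 0.23, 0.23 and 0.81. Of genes with the same direction in all 3 pairs, 35.7% were higher in the scaling used here, 51.8% with TMM, 54.1% without mitochondrial genes in the total and 95.1% with all genes in the total. Sets of genes are therefore compared below with the median of all well-measured genes or with each other, which no scaling changes, while medians, signs and shares printed on their own hold for the scaling used here and shift with it.

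Across the 7565 genes, Pearson's correlation of the within-pair differences was 0.07 between baboons 1 and 2, 0.10 between baboons 1 and 3 and -0.13 between baboons 2 and 3. On the 3093 genes with a mean of at least 100 counts it was 0.08, 0.19 and -0.16. These are descriptions across genes of the same 6 libraries, and genes are not independent replicates. The spread was larger than counting error where counts were high. For the 213 genes with a mean of at least 1000 counts, the SD across genes was 0.389, 0.616 and 0.663 in baboons 1, 2 and 3, against 0.0437, 0.0515 and 0.0509 from Poisson counting alone. For the 1034 genes with a mean under 30 counts it was 0.584, 0.672 and 0.622, against 0.430, 0.495 and 0.448.

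The HCHF libraries lay all above the 3 chow libraries for 157 genes (2.08%) and all below them for 492 (6.5%), against 2.45% and 6.12% of all 12702 genes. The gap between the groups was small for most of these. Its median was 0.09 on the log2 scale for the 157 genes and 0.16 for the 492, and it was over 0.5 for 3 and 30 of them. The widest gap was 1.16, for a gene lower on the HCHF diet on chromosome 7 from 75226584 to 75365244. It had 13.5, 14.4 and 16 CPM in the HCHF libraries of baboons 1, 2 and 3, against 39.7, 36.0 and 35.9 CPM on chow. Its mean was 14.6 ± 1.27 CPM on the HCHF diet and 37.2 ± 2.21 CPM on chow (SD, n = 3 each), and its log2 fold change was -1.34 (standard error 0.33, adjusted p = 0.821 in edgeR). The widest gap in the other direction was 0.575, on chromosome 7 from 23435459 to 23593668, with 13.5 ± 0.336 CPM on the HCHF diet and 7.95 ± 1.36 CPM on chow (SD, n = 3 each).

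Genes with the same direction in all 3 pairs were ranked by the smallest of their 3 within-pair differences, so that those named are a description. First among the genes higher on the HCHF diet was ENSPANG00000008591 (chromosome 6 from 38536672 to 38537474). It had 151, 148 and 105 CPM on the HCHF diet in baboons 1, 2 and 3, against 75.8, 61.6 and 52.0 CPM on chow. All 3 HCHF libraries were above all 3 chow libraries, and each pair differed by about the same factor. The means were 134 ± 25.6 CPM on the HCHF diet and 63.1 ± 12 CPM on chow (SD, n = 3 each), and the log2 fold change was 1.08 (standard error 0.26, adjusted p = 0.821 in edgeR). Without baboon 2 the adjusted p in edgeR was 0.0947, but it was 0.773 without baboon 1 and 0.955 without baboon 3. Second was ENSPANG00000023799 (chromosome 16 from 7959839 to 7960985), at a low level. It had 17.9, 19 and 10.1 CPM on the HCHF diet, against 9.23, 10.4 and 5.55 CPM on chow, or 29 to 45 counts against 11 to 26. Its groups overlapped, since the HCHF level of baboon 3 was below the chow level of baboon 2, and its log2 fold change was 0.89 (standard error 0.38, adjusted p = 0.997 in edgeR).

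First among the genes lower on the HCHF diet was ENSPANG00000025349 (chromosome 15 from 40394709 to 40400302). It had 4.36, 7.72 and 10.8 CPM on the HCHF diet in baboons 1, 2 and 3, against 11.4, 23.2 and 26.3 CPM on chow. The groups did not overlap, but the HCHF level of baboon 3 came close to the chow level of baboon 1, and the counts were few, 11 to 31 against 32 to 52. Its log2 fold change was -1.41 (standard error 0.38, adjusted p = 0.821 in edgeR). Second was ENSPANG00000003880 (chromosome 1 from 131360647 to 131396076), which was also first of all well-measured genes by p. It had 28.2, 7.72 and 12.5 CPM on the HCHF diet, against 65.3, 41.8 and 43.9 CPM on chow, so that every HCHF library was well below every chow library. The means were 16.1 ± 10.7 CPM on the HCHF diet and 50.3 ± 13 CPM on chow (SD, n = 3 each), and the log2 fold change was -1.77 (standard error 0.36, adjusted p = 0.564 in edgeR). It passed the adjusted p without baboon 2 (0.0424) and without a filter on low counts (0.0762), both in edgeR. It did not pass without baboon 1 (0.246), without baboon 3 (0.955) or in the fit of all 12 libraries (0.984), all in edgeR.

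**Figure D2:**
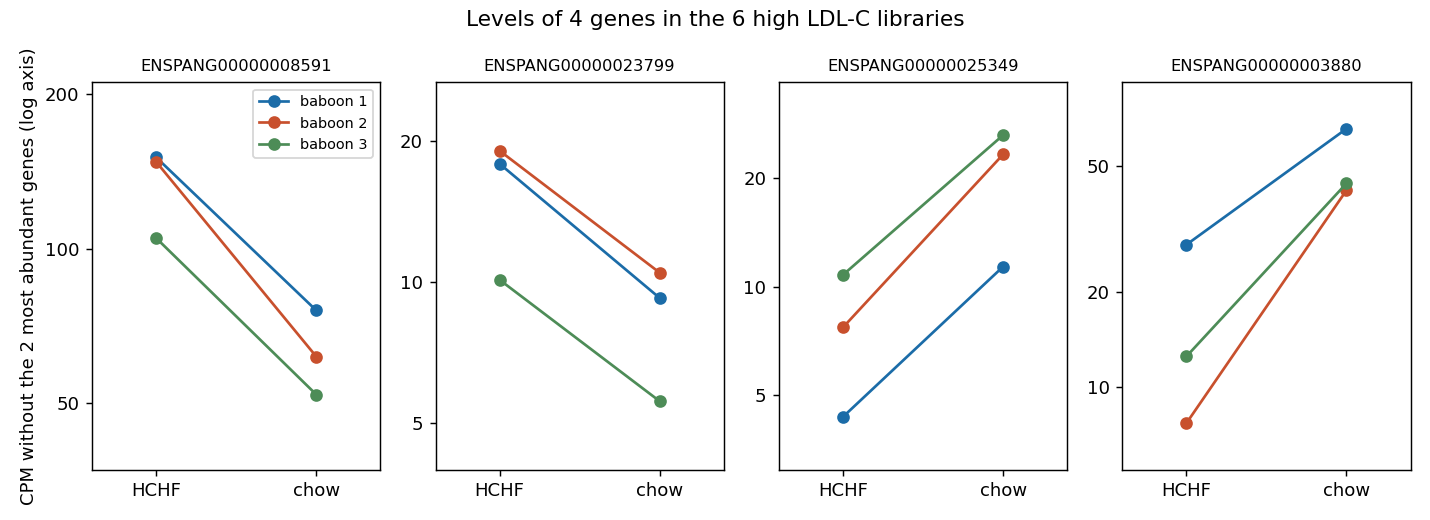
CPM on a log axis in the 3 HCHF and the 3 chow libraries of high LDL-C baboons, for the 2 genes that ranked first in each direction by their smallest within-pair difference. Lines join the libraries of 1 baboon. All lines of the 2 left panels run down to chow and all lines of the 2 right panels run up, and in ENSPANG00000023799 the HCHF level of baboon 3 (10.1 CPM) lies below the chow level of baboon 2 (10.4 CPM).

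The first 10 genes in each direction by this ranking had log2 fold changes of 0.77 to 1.08 and -1.77 to -1.02. The HCHF and chow libraries did not overlap for 7 of the 10 higher and all 10 lower genes, beside 2.45% and 6.12% of all 12702 genes, but the ranking favours groups that do not overlap. The lower genes lay on 9 chromosomes and the higher on 7. The median span was 35212.5 bases for the lower and 8161.5 bases for the higher genes, beside 23025 bases for all well-measured genes. Span went with the difference most of all in baboon 2, as given below. Adjusted p ran from 0.564 to 0.918 for the lower and from 0.821 to 0.997 for the higher genes in edgeR. Besides ENSPANG00000003880, the lower genes that were at least 2-fold lower in every pair included 1 on chromosome 13 from 96592596 to 96634536. It had 11.1, 5.66 and 9.04 CPM on the HCHF diet and 22.7, 18 and 21.2 CPM on chow. Another, on chromosome 14 from 72894779 to 72929640, had 12 counts in each of the 3 HCHF libraries, which were 4.76, 6.17 and 4.17 CPM, against 11.7, 13.9 and 9.90 CPM on chow. Yet another, on chromosome 11 from 109810030 to 109843903, had 8.73, 20.1 and 16 CPM on the HCHF diet, against 24.8, 42.4 and 39.4 CPM on chow.

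Among the 10 well-measured genes with the lowest p were some at a high level, where counting error is small. A gene on chromosome 14 from 11201334 to 11218334 had 1134, 746 and 1666 CPM on the HCHF diet in baboons 1, 2 and 3, against 3616, 3388 and 2681 CPM on chow. Its HCHF libraries were all below its chow libraries, with the smallest step in baboon 3 (log2 fold change -1.52, standard error 0.31, adjusted p = 0.573 in edgeR). In low LDL-C baboons its log2 fold change was -1.53 in edgeR. A gene on chromosome 13 from 106915873 to 106922408 had 366, 793 and 178 CPM on the HCHF diet, against 131, 258 and 114 CPM on chow. It was higher in every pair, but its groups overlapped, the HCHF level of baboon 3 being below the chow level of baboon 2 (log2 fold change 1.26, standard error 0.28, adjusted p = 0.782 in edgeR). Its log2 fold change in low LDL-C baboons was 1.26 in edgeR. Both low LDL-C values come from the fit of all 12 libraries, and levels in each low LDL-C animal were not set beside them. That fit holds the chow library of low LDL-C baboon 2, with 89.3% of its counts on the 2 most abundant genes. Another gene, on chromosome 17 from 23813322 to 23815722, had 3390, 1392 and 1119 CPM on the HCHF diet and 4650, 3786 and 3232 CPM on chow. Its step was -0.46 in baboon 1 and -1.44 and -1.53 in baboons 2 and 3.

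The 2 most abundant genes are also well measured, and their levels are given on the scale of all other counts. The gene on chromosome 14 had 497060, 434430 and 91159 CPM on the HCHF diet in baboons 1, 2 and 3, against 680290, 781060 and 592640 CPM on chow. All its HCHF libraries were lower, that of baboon 3 by far the most, and the log2 fold change was -1.31 (standard error 0.41, adjusted p = 0.821 in edgeR). The gene on chromosome 20 had 272880, 485080 and 103630 CPM on the HCHF diet, against 391640, 473440 and 499930 CPM on chow, so that baboon 2 hardly differed between diets. A nearby gene on chromosome 20 from 42735 to 46902, next in level among the nuclear genes, had within-pair differences of -0.49, 0.53 and -2.12, beside -0.52, 0.04 and -2.27 for the more abundant one. Besides these 3 genes, the 10 most abundant were mitochondrial.

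For each baboon the gene with the largest difference that neither of the other animals shared in direction shows how far a single pair could move. In baboon 1, a gene on chromosome 16 from 7543928 to 7552528 had 4.36 CPM on the HCHF diet and 20.6 CPM on chow, where baboons 2 and 3 had 43.7 and 34.4 CPM on the HCHF diet and 36.6 and 33.8 CPM on chow. In baboon 2, a gene on chromosome 1 from 134465043 to 134482536 had 10 counts (5.14 CPM) on the HCHF diet and 115 counts (66.7 CPM) on chow. In baboon 3, a gene on chromosome 7 from 131357487 to 131363160 had 34.1 CPM on the HCHF diet and 359 CPM on chow, where the chow levels of baboons 1 and 2 were 39.7 and 34.2 CPM. The direction alone, at any size, set baboons 1, 2 and 3 against both other animals for 1312, 2219 and 2181 genes. These counts include small differences, and no share over all genes was taken beside them.

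Along the genome the 3 baboons differed in an ordered way. Chromosome 19, the most gene-dense with 28.6 genes of the table per Mb, had a median difference 0.46 above that of all well-measured genes in baboon 2 and 0.34 below it in baboon 3. Chromosomes 17, 5 and 18, with 5.76, 5.76 and 5.96 genes per Mb, were 0.27, 0.36 and 0.42 below it in baboon 2 and 0.22, 0.21 and 0.17 above it in baboon 3. In baboon 1 all 21 chromosomes lay within a range of 0.172, against 0.880 in baboon 2 and 0.564 in baboon 3. Gene counts per Mb rest on the genes of the table and the position of the last of them on each chromosome.

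Between chromosome 19 (598 genes) and chromosomes 5, 17 and 18 pooled (444 genes), the medians differed by 0.82 in baboon 2 (0.27 against -0.55) and by -0.55 in baboon 3 (-0.32 against 0.23). In baboon 1 they differed by -0.07. In baboon 2, 77.1% of the genes on chromosome 19 lay above the median of all well-measured genes, against 32.2% on chromosomes 5, 17 and 18. In baboon 3 it was 23.4% against 68.9%, and in baboon 1 46.2% against 53.4%. With at least 50 counts in each library the contrast was 0.60 in baboon 2, -0.54 in baboon 3 and -0.14 in baboon 1. Averaged over the 3 pairs it came to 0.06, since the animals nearly cancelled out, and it was 0.33 without baboon 3 and -0.33 without baboon 2. No test of a chromosome was made.

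Across the 21 chromosomes the medians of baboons 2 and 3 had a Pearson correlation of -0.93 (Spearman -0.87), and those of baboons 1 and 3 of 0.72. With gene density the medians of baboon 2 had a correlation of 0.86, those of baboon 3 of -0.88 and those of baboon 1 of -0.55. These describe 21 points that share the same libraries, and the chromosomes also differ in the span and level of their genes. Neighbouring well-measured genes on a chromosome had a correlation of 0.06, 0.20 and 0.15 in baboons 1, 2 and 3 over 7522 neighbour pairs.

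**Figure D3:**
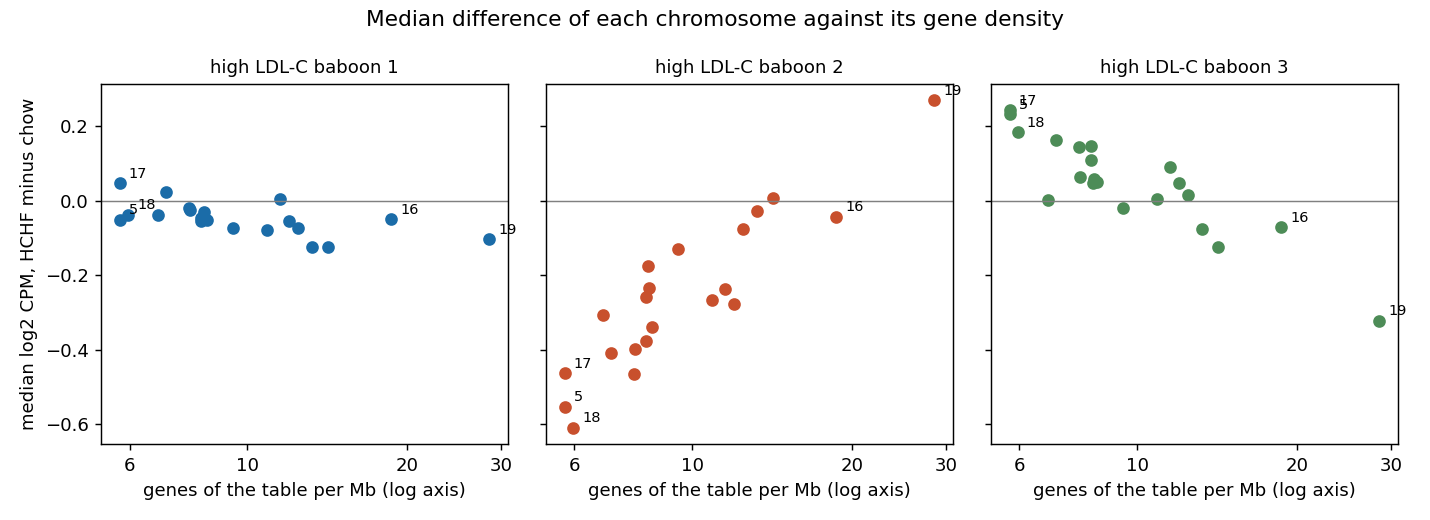
Median log2 CPM difference HCHF minus chow of the well-measured genes on each of 21 chromosomes against the number of genes of the table per Mb (log axis), 1 panel for each high LDL-C baboon, with 5 chromosomes numbered. The points climb with gene density in baboon 2, up to 0.27 on chromosome 19, descend in baboon 3, down to -0.32 on chromosome 19, and stay within 0.172 of each other in baboon 1.

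The span of a gene divided the animals as well, most of all baboon 2. Relative to all well-measured genes, its median difference was 0.21 for genes under 1 kb, 0.34 at 1 to 3 kb, 0.35 at 3 to 10 kb, 0.12 at 10 to 30 kb, -0.29 at 30 to 100 kb and -0.56 at 100 kb or more. In baboon 3 the values were -0.03, -0.07, -0.06, -0.06, 0.08 and 0.11 over the same classes, and in baboon 1 they lay between -0.04 and 0.07. The class of 100 kb or more held 858 genes. On genes with a mean of at least 100 counts, the median of baboon 2, not set against all genes, was 0.03, 0.13, 0.29, 0.08, -0.38 and -0.82 from the shortest to the longest class, so that the classes from 30 kb up were again the lowest, while the shorter ones changed places in part.

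**Figure D4:**
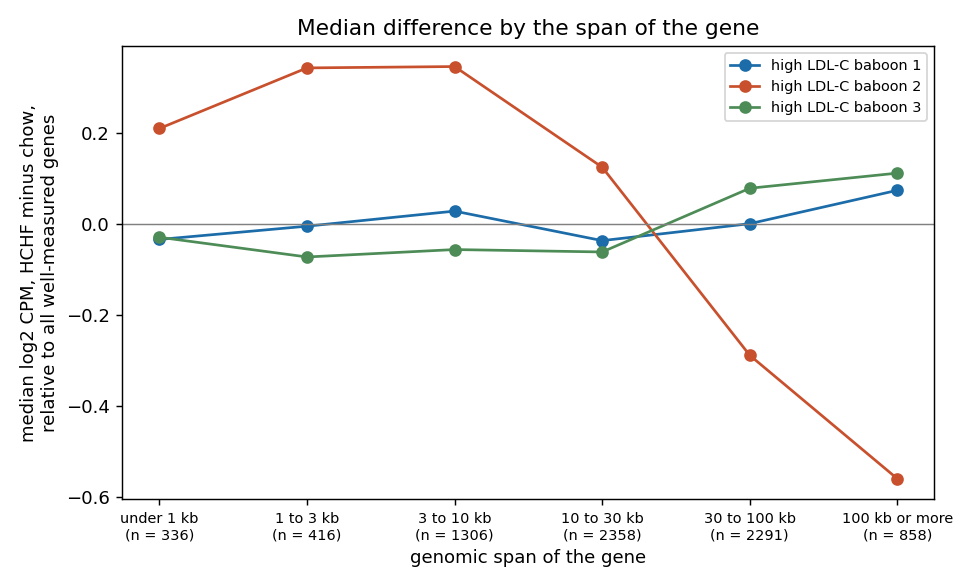
Median log2 CPM difference HCHF minus chow, relative to the median of all well-measured genes of the same baboon, by the genomic span of the gene, from under 1 kb to 100 kb or more, with a line for each high LDL-C baboon and the number of genes under each class. Baboon 2 descends to -0.56 for genes of 100 kb or more, while the other baboons stay between -0.07 and 0.11.

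Within a class of span the chromosomes still differed. On chromosome 19, genes of 10 to 30 kb (262 genes) had a median of 0.28 in baboon 2 and -0.35 in baboon 3, while on chromosomes 5, 17 and 18 genes of the same span (84 genes) had -0.37 and 0.30. At 30 to 100 kb the medians were 0.07 and -0.24 on chromosome 19 (116 genes), against -0.69 and 0.25 on chromosomes 5, 17 and 18 (182 genes). In both classes chromosome 19 was above the others in baboon 2 and below them in baboon 3.

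The libraries behind these differences could be seen from the median deviation of each set from the mean of its genes over the 6 libraries. For genes of 100 kb or more it was 0.22, -0.60 and 0.05 in the HCHF libraries of baboons 1, 2 and 3, against 0.22, 0.21 and -0.06 in their chow libraries. The HCHF library of baboon 2 was alone far below the rest. For chromosome 19 the deviations were -0.20, 0.41 and -0.22 on the HCHF diet, against -0.11, 0.13 and 0.07 on chow, so that the HCHF library of baboon 2 was the highest of the 6 and that of baboon 3 the lowest, with that of baboon 1 close to it. The share of counts on chromosome 19, without the 2 most abundant and the mitochondrial genes, was 11.7% in the HCHF library of baboon 2 against 9.42% in its chow library, and 7.42% against 9.82% in baboon 3. The base composition of the genes was not analysed here, and the part of RNA quality or of library preparation in these patterns was not tested.

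The mitochondrial genome codes for subunits of the respiratory chain and for the ribosomal and transfer RNAs that translate them, and its transcripts are abundant in cells rich in mitochondria. Mitochondrial genes took 30.8%, 29.1% and 38.4% of the counts left without the 2 most abundant genes in the HCHF libraries of baboons 1, 2 and 3, against 26.3%, 26.2% and 33.9% on chow. The share was higher on the HCHF diet in all 3 pairs, while the groups overlapped, the chow library of baboon 3 being above the HCHF libraries of baboons 1 and 2. This rise was not particular to high LDL-C animals. In low LDL-C baboons 1, 2 and 3 the share was 40.72%, 42.16% and 32.56% on the HCHF diet, against 35.42%, 15.89% and 19.15% on chow. Among the 38 mitochondrial genes listed, 22 were well measured, all 15 of at least 100 bases and 7 of 23 that were shorter. Relative to all well-measured genes their median difference was 0.20, 0.15 and 0.23 higher in baboons 1, 2 and 3. Of the 22, 7 were higher in all 3 pairs and 1 was lower in all 3, beside 8.46% and 14.7% of all 12702 genes. With the other scalings 9 to 11 were higher and 0 or 1 lower. None of the 22 was called by edgeR, and at an unadjusted p under 0.05 it gave 1 higher and 0 lower, beside 2.68% and 2.29% of all genes.

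Among the longer mitochondrial genes, most differed by less than 2-fold in every pair. The gene from 7014 to 7698 had 36721, 39838 and 40810 CPM on the HCHF diet, against 29401, 32601 and 35910 CPM on chow, and its HCHF libraries were all above its chow libraries (log2 fold change 0.26, standard error 0.18, adjusted p = 0.997 in edgeR). The gene from 8627 to 9411 had 24416, 33141 and 37399 CPM on the HCHF diet, against 23070, 21325 and 28573 CPM on chow, higher in every pair but hardly so in baboon 1. The gene from 5332 to 6901, the most abundant of them, had 110330, 84269 and 113420 CPM on the HCHF diet, against 77096, 85806 and 109200 CPM on chow, and only baboon 1 stood out. The gene from 11763 to 13569 was the 1 that was lower in all 3 pairs, by 0.12, 0.90 and 0.12 on the log2 scale.

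Baboon 2 departed from this in single genes. The gene from 9890 to 10187 had 3535, 1054 and 4085 CPM on the HCHF diet in baboons 1, 2 and 3, against 3221, 3025 and 4959 CPM on chow, so that the HCHF library of baboon 2 was far below the other 5. The 7 genes under 100 bases had a median difference of -0.85 in baboon 2, against 0.60 in baboon 1 and 0.25 in baboon 3, at counts of 19 or more. The gene from 6873 to 6942 went the other way, with 23.4, 65.3 and 28.9 CPM on the HCHF diet, against 11.7, 23.2 and 23.2 CPM on chow. It was the 1 mitochondrial gene at an unadjusted p under 0.05 (log2 fold change 0.93, standard error 0.37, adjusted p = 0.921 in edgeR). It overlaps the far more abundant gene from 5332 to 6901, and whether reads of that gene enter its counts was not tested.

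**Figure D5:**
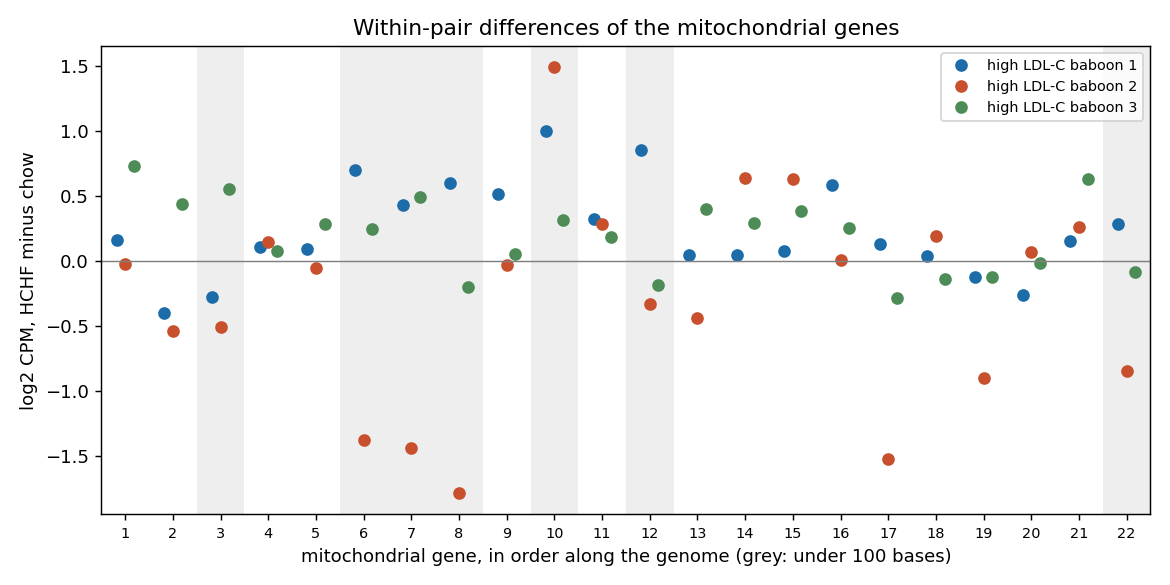
Log2 CPM difference HCHF minus chow of the 22 well-measured mitochondrial genes in order along the mitochondrial genome, with a point for each high LDL-C baboon and grey bands for genes under 100 bases. The points of most longer genes lie near 0, and baboon 2 ranges from -1.78 to 1.49.

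To ask whether the response of these genes was particular to high LDL-C, the difference between the diet responses of high and low LDL-C baboons was tested in 1 fit of all 12 libraries (12589 genes with a mean of at least 1 CPM). None of the 7565 genes was called in edgeR (lowest adjusted p = 0.808), where the share called over all genes was 0.175% with a higher and 0% with a lower response in the high LDL-C group. At an unadjusted p under 0.05 in edgeR, 31 had a higher and 13 a lower response in high LDL-C baboons (0.410% and 0.172%), against 3% and 0.167% of all genes. With TMM these numbers were 95 and 85, without a share over all genes beside them, and 0 were called. The count depended on low LDL-C baboon 2, whose chow library had 89.3% of its counts on the 2 most abundant genes. Without this baboon, edgeR called 842 of the 7565 genes (11.1%) with a higher and 23 (0.304%) with a lower response in high LDL-C baboons. Over all genes the shares were 9.42% and 0.214%. This fit was made in the scaling used here alone, and whether the balance of its calls holds under TMM was not tested. The chow library of low LDL-C baboon 1 stood apart the other way, with 16.8% of its counts on these 2 genes. On the 4849 genes with at least 10 counts in all 12 libraries, the median difference was -0.03, -0.15 and 0.01 in high LDL-C baboons 1, 2 and 3, against -0.51, 0.61 and -0.62 in low LDL-C baboons 1, 2 and 3. The medians of the low LDL-C animals were thus further from 0, below it in 2 animals and above it in 1.

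Of the 4 genes named by ID, none had the same direction in all 6 pairs. ENSPANG00000008591, higher in all 3 high LDL-C pairs, had in low LDL-C baboons 1, 2 and 3 61.5, 121 and 26.4 CPM on the HCHF diet, against 116, 46.7 and 50.1 CPM on chow, which is lower in 2 pairs and higher in 1. ENSPANG00000003880, lower in all 3 high LDL-C pairs, had 45.6, 16.9 and 13.1 CPM on the HCHF diet, against 63.5, 6.56 and 33.7 CPM on chow. It was thus also lower in low LDL-C baboons 1 and 3 and higher in low LDL-C baboon 2. The difference between the phenotypes in its response was -1.50 on the log2 scale, and for ENSPANG00000008591 it was 1.28 (adjusted p = 1 in edgeR for both). Of the first 10 lower genes in the ranking, 9 had a fitted difference below 0 in the low LDL-C animals, as had 68.7% of all 7565 genes. Of the first 10 higher genes, 4 had one above 0, beside 31.3% of the 7565.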

How the data were processed

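RNA-seq libraries (2x100 bp, poly-A selected) came from 12 buffy coat samples. The authors used CASAVA 1.8 for the FASTQ files, trimmed reads by quality, ran STAR 2.3.1j against Ensembl transcripts of PapAnu2 (release 76) and estimated a count for each transcript in Partek Flow. The deposited values are these expected counts, not scaled for length or depth. They were summed over the 29300 transcripts to 27533 genes, and rounded to whole numbers for the fits only. CPM used the library total without the 2 most abundant genes.

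HCHF and chow libraries of the 6 high LDL-C samples were compared with edgeR 4.0.16 (glmQLFit, glmQLFTest, two-sided), with a term for each baboon and 2 residual degrees of freedom, on genes at 1 CPM or more on average. A gene was called at p under 0.05 and adjusted p under 0.20. The interaction of phenotype and diet was fitted on all 12 libraries. Pairs come from animal numbers in the labels. Deviations of paired libraries from their group means had correlations of 0.454, 0.259 and 0.105 across genes. Mismatched libraries were not set beside them, so that these values cannot show that the labelled pairs fit better than others.

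The genes described, the lists and the tests were chosen with earlier results of these data known. Named genes were any called, the first 10 in each direction by the smallest within-pair difference, the 10 most abundant, and for each baboon the gene with the largest difference not shared in direction. Rankings by p, group gap and 2-fold difference, and the mitochondrial set, were chosen after their values were seen. At most 2 IDs a direction are printed, and gene lists, cell type markers and genes named by the study were not analysed, since no symbols are paired with the IDs. Alternatives were TMM, other totals, DESeq2 1.42.0, limma 3.58.1 with quantile normalization, other filters and thresholds, robust empirical Bayes, no term for the baboon and leaving out each baboon. R 4.3.3 was used. TPM values and small RNA data were not used here.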

Additional observations from a re-analysis of the deposited data

How the results depend on the processing

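Without the replicate block (no term for the baboon), 0 well-measured genes were called, as in the paired fit, both in edgeR. Over all genes edgeR called 3 in the paired fit and 0 without the block. At an unadjusted p under 0.05 in edgeR, 34 well-measured genes were higher and 155 lower without the block, against 39 and 212 in the paired fit. Against 0 calls of well-measured genes, the total with all genes and DESeq2 gave 2 each, no filter on low counts gave 16 and an unadjusted p under 0.05 alone gave 251. At an unadjusted p under 0.05, genes higher on the HCHF diet numbered 72 with TMM, 92 with limma after quantile normalization, 263 with the total of all genes, 11 in the fit of all 12 libraries and 69 without mitochondrial genes in the total (chosen after seeing the data). Genes lower on the HCHF diet numbered 17 with the total of all genes, 103 with DESeq2, 61 in the fit of all 12 libraries and 140 without mitochondrial genes in the total. With the total of all genes the median of the mean differences was 0.33, against -0.09, and 2462 genes were higher and 128 lower in all pairs, against 661 and 1192. Without mitochondrial genes in the total 1009 were higher, and of genes with at least 50 counts in each library 325 were higher and 476 lower. For the difference in response, TMM gave 95 higher and 85 lower genes at an unadjusted p under 0.05, against 31 and 13. Counts at an unadjusted p under the alternatives, here and below, cover the well-measured genes alone, and no share over all genes was taken.

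Leaving out each replicate in turn, calls ranged from 3 to 97, genes higher at an unadjusted p under 0.05 from 25 to 204 and genes lower from 123 to 402. The median of the mean differences ranged from -0.15 to -0.02, genes higher in both remaining pairs from 1285 to 1894 and genes lower from 1880 to 2579, where agreement over 2 pairs is met more often than over 3. The chromosome 19 contrast ranged from -0.33 to 0.33. For the difference in response, calls ranged from 0 to 865, higher genes from 10 to 1464, and lower genes numbered 2, 7 and 17 without high LDL-C baboons 1, 2 and 3 and 15, 106 and 7 without low LDL-C baboons 1, 2 and 3. The 4 genes named by ID were chosen for the same direction in all 3 pairs, which largely fixed it in refits of these counts. They kept it under all 13 alternatives in which they were fitted, and 3 of these 52 values became calls. The causes of these differences were not tested. The gene lists could not be matched to the files, and their alternatives were not run. Precision is limited by 3 pairs, by the counting error of genes near 10 counts and by libraries that stand apart. In the share of the 2 most abundant genes these are the HCHF library of baboon 3 and the chow libraries of low LDL-C baboons 1 and 2. The HCHF library of baboon 2 has the fewest genes with at least 10 counts of the 6 (8373). It also lies far below the others for long genes.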
